A study of Mus musculus with 12 samples.

Results

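The proteasome is the large protease that degrades ubiquitin-tagged proteins, and the genes of its subunits were followed in mouse liver as the organ regrew after surgery. Members were all coding probes whose RefSeq accession maps to a gene symbol of the form Psma, Psmb, Psmc, Psmd or Psme followed by a digit, and that were called well above background on at least 3 of the 12 arrays. All 45 such probes on the array passed, and they stand for 44 of the 16838 coding genes tested. Of the 44 genes, 41 encode proteasome subunits, activators or assembly factors of the regulatory particle. The other 3 are Psmb11, a beta subunit gene of the thymus, and Psmc3ip and Psme3ip1, whose products are not subunits, and they are described apart. Psme2 was the only gene with more than 1 probe, and genes were counted by their brightest probe.

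The samples came from wild-type C57BL/6 male mice aged 6 weeks, killed 0, 1.5, 12 or 24 h after 2/3 of the liver had been removed (partial hepatectomy), and each of the 4 time points has 3 arrays from 3 mice. Sham surgery has no group here, so loss of liver mass, surgery and time of day cannot be told apart. Total RNA of whole liver tissue was labelled with a single dye and hybridised to an Agilent array that carries messenger RNA and long noncoding RNA probes.

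The proteolytic core, or 20S particle, is a stack of rings built from alpha subunits (Psma genes) and beta subunits (Psmb genes). Its cutting sites sit in the constitutive subunits beta5 (Psmb5), beta1 (Psmb6) and beta2 (Psmb7). Interferon-gamma and related signals induce beta5i (Psmb8), beta1i (Psmb9) and beta2i (Psmb10), which take the place of these 3 in newly built particles. The result is the immunoproteasome, which is abundant in blood-borne immune cells and generates peptides for display on MHC class I. The 19S regulatory particle, with its ATPases (Psmc genes) and non-ATPase subunits (Psmd genes), binds ubiquitin chains, unfolds the protein and feeds it into the core, and the activators of the Psme genes can cap the core in its place.

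Values are log2 of the array's processed signal minus the array's own 75th percentile, so 1 unit is a doubling, and levels of different probes cannot be set against each other. In the standard model all 12 arrays enter limma with this scaling and equal weight, and a gene is said to pass or be called by that model unless another setting is named. The files give 4 scans. Scan 1 holds the 0 h arrays and 1.5 h replicate 1, scan 2 holds 1.5 h replicates 2 and 3 and 12 h replicates 1 and 2, scan 3 holds 12 h replicate 3 and 24 h replicates 1 and 3, and scan 4 holds 24 h replicate 2 alone. The last array stood apart, with a 75th percentile of 6018 signal units against 428 to 584 on the other 11, and 540 outlier spots against 19 to 40. Because its spread enters every comparison through the pooled error, results are given with and without it. Across all probes, 1.5 h replicate 1 correlated more closely with a 0 h array of its own scan (r = 0.987) than with its own group (0.972 at the lowest). Proteasome genes were detected throughout: 37 of the 44 were called well above background on all 12 arrays. Psma1 was so called on 7 arrays and Psmb11 on 10, and the others missed 1 array through an outlier spot. Hepatocyte markers such as Alb and Ttr, 6 of 6 on the fixed list, were measured in every group. In whole tissue, fewer cells of a type and less RNA per cell cannot be told apart.

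The clearest movement among the proteasome genes was in the 3 immunoproteasome subunits, whose means were lower at 12 and 24 h than at 0 and 1.5 h. 2 of the 3 passed the test. Psmb8 fell 2.26-fold by 12 h and 3.16-fold by 24 h, and Psmb10 fell 2.17-fold by 12 h. No member passed as higher at any time point in the standard model. The upstream regions of these 3 genes are printed because their means differed in one direction at both later times. Those of Psmb5 and Psmb6, whose products are replaced by those of Psmb8 and Psmb9, are printed beside them. Psmb5 and Psmb6 gave no call in the standard model, and neither did Psmb9. Each sequence is the 250 bases before the annotated gene start, 5′ to 3′ on the gene's strand, from the RefSeq promoter table for GRCm38.p6. Capitals mark matches, on either strand, to any of the 4 motifs searched: TGACNNNGC (core of the antioxidant response element, bound by NRF1 and NRF2), CCAAT, GAAANNGAA (core of the interferon-stimulated response element) and TTCNNNGAA (the gamma-activated site). Psmb8 lies on the plus strand, window chr17:34197945-34198194, and Psmb9 on the minus strand, window chr17:34187331-34187580. Psmb10 lies on the minus strand, window chr8:105938393-105938642, Psmb5 on the minus strand, window chr14:54617996-54618245, and Psmb6 on the plus strand, window chr11:70525107-70525356.
Psmb8: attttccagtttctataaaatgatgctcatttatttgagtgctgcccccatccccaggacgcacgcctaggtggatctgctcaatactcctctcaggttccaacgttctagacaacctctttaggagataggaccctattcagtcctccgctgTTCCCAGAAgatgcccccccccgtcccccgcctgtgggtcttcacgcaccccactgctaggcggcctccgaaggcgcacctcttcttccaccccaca
Psmb9: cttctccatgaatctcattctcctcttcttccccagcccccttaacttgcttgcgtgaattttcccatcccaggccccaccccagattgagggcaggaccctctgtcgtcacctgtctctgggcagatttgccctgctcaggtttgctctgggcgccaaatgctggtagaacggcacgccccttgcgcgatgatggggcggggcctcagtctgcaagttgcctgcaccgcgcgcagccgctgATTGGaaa
Psmb10: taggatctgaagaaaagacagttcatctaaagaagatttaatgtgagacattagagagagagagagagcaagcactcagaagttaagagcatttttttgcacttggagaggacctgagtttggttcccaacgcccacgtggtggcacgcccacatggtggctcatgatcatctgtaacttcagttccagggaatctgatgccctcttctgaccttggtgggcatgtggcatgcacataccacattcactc
Psmb5: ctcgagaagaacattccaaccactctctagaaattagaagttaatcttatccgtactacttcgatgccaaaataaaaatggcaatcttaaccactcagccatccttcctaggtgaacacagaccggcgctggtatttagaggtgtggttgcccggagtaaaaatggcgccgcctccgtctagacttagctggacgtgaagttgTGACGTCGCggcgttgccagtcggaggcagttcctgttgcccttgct
Psmb6: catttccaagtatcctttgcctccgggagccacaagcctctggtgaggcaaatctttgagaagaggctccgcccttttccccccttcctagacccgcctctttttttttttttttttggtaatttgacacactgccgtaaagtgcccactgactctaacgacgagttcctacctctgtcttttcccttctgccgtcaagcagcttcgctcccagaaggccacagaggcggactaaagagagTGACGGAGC

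The Psmb8 window held a match to the gamma-activated site starting 97 bases before the gene start. It was the 1 gene with that match among the 38 members for which the table has a promoter (2.63%), and 7.02% of all 32851 promoters in the table held one. Here and below, a member counted if any of its promoters matched (42 promoters for 38 genes). The share of all promoters counts each promoter once, so the units differ. The Psmb9 window held a CCAAT box, starting 8 bases before the start, as did 16 of the 38 members (42.1%) and 33.8% of all promoters. Psmb5 and Psmb6 each held a match to the antioxidant response element core, shared with Psmc6, Psmd9 and Psmd12. These 5 of 38 members (13.2%) compare with 10.2% of all promoters. The core of the interferon-stimulated response element matched in Psmb3, Psmd4 and Psmd9 (7.89% of members, 7.13% of all promoters), and none of the 4 motifs matched in the Psmb10 window. In the RefSeq gene table Psmb8 and Psmb9 stand next to the peptide transporter genes on chromosome 17, in the order Psmb9, Tap1, Psmb8 and Tap2.

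Psmb8, which encodes beta5i, the inducible chymotrypsin-like subunit, read 4.06, 4.61 and 3.89 on the 3 arrays at 0 h. Its values were 4.89, 4.36 and 4.10 at 1.5 h. At 12 h they were 3.22, 2.81 and 3.01, and at 24 h they were 2.64, 2.53 and 2.41. Every array at 12 h lay below every array at 0 and 1.5 h, and every array at 24 h lay below every array at 12 h. The difference was -1.18 ± 0.29 (log2 fold change ± SE, n = 3 per group) at 12 h against 0 h, with an adjusted p of 0.0197 by limma with Benjamini-Hochberg adjustment over all probes. At 24 h it was -1.66 ± 0.29 (limma adjusted p = 0.00974).

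Psmb10, which encodes beta2i, the inducible trypsin-like subunit, read 4.33, 4.68 and 4.14 at 0 h and 4.94, 4.43 and 4.41 at 1.5 h. It read 3.32, 3.16 and 3.30 at 12 h, then 3.44, 3.90 and 2.82 at 24 h. The 3 arrays of 12 h, and those of 24 h, lay below all 6 earlier arrays, while the 24 h arrays were spread widely and straddled those of 12 h. The 12 h difference was -1.12 ± 0.31 (limma adjusted p = 0.0325). The 24 h difference of -1.0 ± 0.31 did not pass (limma adjusted p = 0.0873), but did without 24 h replicate 2 (-1.26 ± 0.26, adjusted p = 0.0116).

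Psmb9, which encodes beta1i, the inducible counterpart of the caspase-like beta1, read 2.59, 3.96 and 2.73 at 0 h and 4.37, 3.22 and 2.95 at 1.5 h. It read 1.78, 1.56 and 1.82 at 12 h, then 2.80, 0.15 and 2.29 at 24 h. The 12 h arrays lay below all arrays at 0 h, but at 24 h replicate 1 overlapped the 0 h range and replicate 2 was the lowest of all 12. Neither difference passed: the 12 h value was -1.37 ± 0.65 (limma adjusted p = 0.167) and the 24 h value -1.35 ± 0.65 (limma adjusted p = 0.265). Without 24 h replicate 2 the 12 h value was the same, with a smaller error (± 0.42, limma adjusted p = 0.0234), and the 24 h value was -0.55 ± 0.47 (adjusted p = 0.456).

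**Figure D1:**
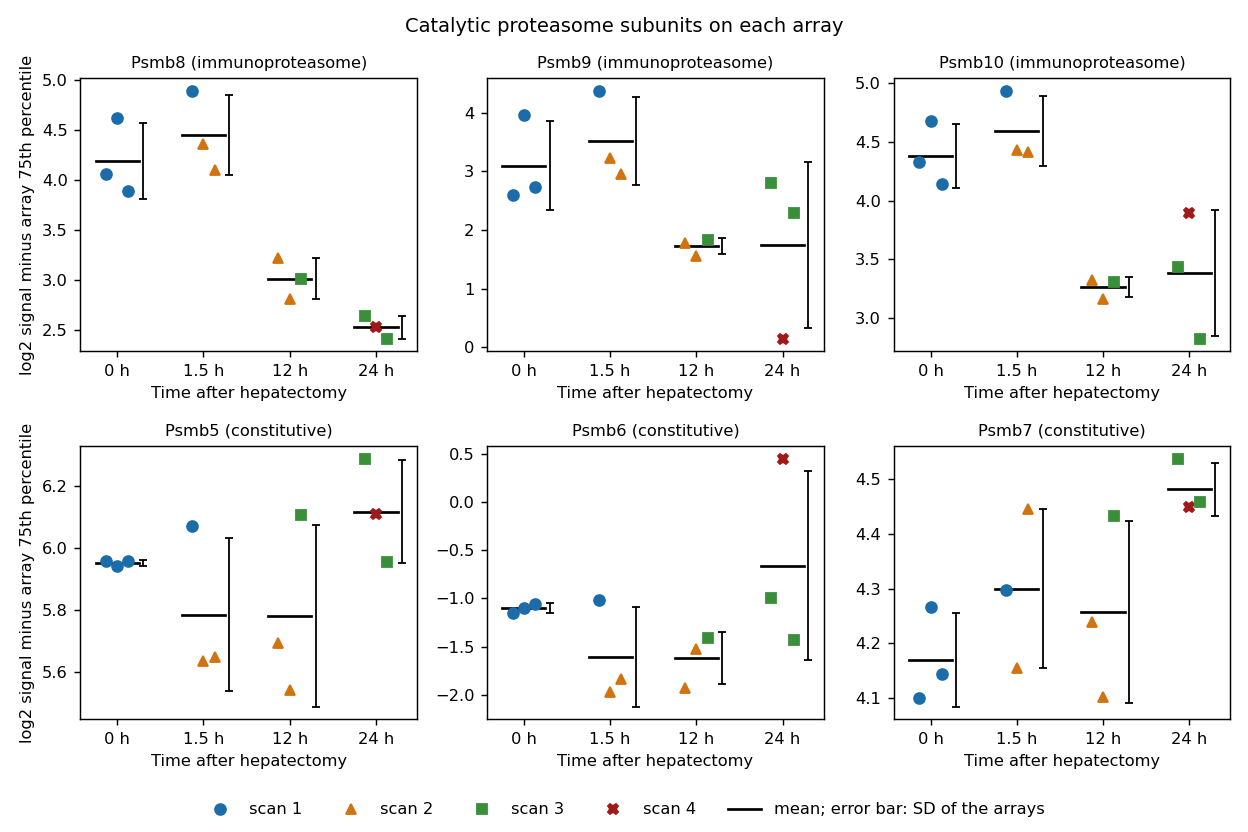
Log2 signal minus the array's 75th percentile (vertical axis, a separate scale in each panel) on each array at 0, 1.5, 12 and 24 h for the 3 immunoproteasome subunits (top) and the constitutive subunits they replace (bottom). Symbols give the scan, bars the mean and error bars the SD of 3 arrays; Psmb8 arrays at 12 h (2.81 to 3.22) and 24 h (2.41 to 2.64) sit below those at 0 h (3.89 to 4.61), while Psmb5 and Psmb6 follow the scan.

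Counted over the whole family, 2 of 44 members passed at 12 h against 0 h, both lower (Psmb8 and Psmb10), where 9.9% of all coding genes were called lower and 7.35% higher. At 24 h against 0 h, 1 of 44 passed, lower (Psmb8), where 2.43% of coding genes were called lower and 3.39% higher. The median log2 fold change of the 3 immunoproteasome genes was -1.18 at 12 h and -1.35 at 24 h. The median over all 44 members was -0.17 and 0.23, and that over all coding genes 0.26 and -0.06. With the other scalings tried, the immunoproteasome median at 12 h lay between -1.60 and -1.03, while that of coding genes lay between 0.02 and 0.45. At 1.5 h the 3 genes were between 0.21 and 0.42 above 0 h, and none passed.

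Scan and time overlap in this design, and the immunoproteasome calls depended on how that was handled. With scan as a fixed block, the 12 h difference was -0.52 ± 0.41 for Psmb8 (limma adjusted p = 0.539) and -0.63 ± 0.39 for Psmb10 (adjusted p = 0.407), and no member passed at 12 or 24 h. The 24 h difference of Psmb8 became -1.0 ± 0.53 (limma adjusted p = 0.534), and Psmb9 changed sign at 24 h, to 0.58. All 0 h arrays lie in scan 1, where 1.5 h replicate 1, with high immunoproteasome values, is the only array of another time point. Within scan 2, which holds 2 arrays each of 1.5 and 12 h, Psmb8 was 1.21 lower at 12 h (log2 difference -1.21), Psmb9 differed by -1.42 and Psmb10 by -1.18. The same within-scan difference had a median of 0.05 over the 44 members and 0.06 over coding genes. Within scan 3, 24 h minus 12 h was -0.48 for Psmb8, 0.72 for Psmb9 and -0.17 for Psmb10. Single arrays mattered too. Leaving out any of 0 h replicates 1 or 2 or 12 h replicates 2 or 3 took the 12 h count to 0, with adjusted p between 0.0531 and 0.0884 for Psmb8. Leaving out 0 h replicate 2 took Psmb8 at 24 h to an adjusted p of 0.0514.

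Transcripts of each inducible subunit were then set against those of its constitutive counterpart, as a ratio within each array. Protein and assembled particles were not measured. In the ratio a single scaling factor per array cancels, while other normalizations and background corrections do not. Only its change over time has a meaning, since the probes of both genes differ in brightness. For beta5, log2 Psmb8 over Psmb5 was -1.89, -1.33 and -2.06 at 0 h and -1.18, -1.28 and -1.55 at 1.5 h. It was -2.48, -2.73 and -3.09 at 12 h, then -3.64, -3.57 and -3.54 at 24 h. The groups at 12 and 24 h were separate from each other and from all earlier arrays. An exact permutation test of the 12 arrays over the 4 time points (369600 arrangements, with an F statistic, which has no direction) gave p = 0.00013, or 0.00039 adjusted over the 3 pairs by Benjamini-Hochberg.

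For beta2, log2 Psmb10 over Psmb7 averaged 0.21 ± 0.21 (SD, n = 3) at 0 h and 0.29 ± 0.34 at 1.5 h, then -0.99 ± 0.12 at 12 h and -1.10 ± 0.54 at 24 h. All 6 later arrays, from -1.64 to -0.55, lay below all 6 earlier ones, from -0.03 to 0.64 (exact permutation p = 0.00571, adjusted 0.00857). For beta1, log2 Psmb9 over Psmb6 averaged 4.19 ± 0.75 at 0 h, 5.12 ± 0.31 at 1.5 h, 3.34 ± 0.32 at 12 h and 2.40 ± 2.34 at 24 h. That pair did not pass (exact permutation p = 0.0618, adjusted 0.0618). Its 24 h spread came from replicate 2, at -0.30 against 3.80 and 3.71, and without that array the exact permutation p was 0.0192. Within scan 2 the 12 h arrays were below the 1.5 h arrays by log2 differences of -1.19, -1.59 and -1.05 for beta5, beta1 and beta2. The ratio tests also depended on the scan. With scan as a block and time points permuted within each scan (exact test over 72 arrangements, smallest possible p = 0.0139), the 12 h minus 0 h differences were -0.61, -0.41 and -0.62, against -1.01, -0.85 and -1.21 without the block. The exact permutation p, over all 4 time points and not adjusted over the 3 pairs, was then 0.0556 for beta5 and 0.222 for beta2. Those 2 no longer passed. For beta1 it was 0.0278, under 0.05 without that adjustment.

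**Figure D2:**
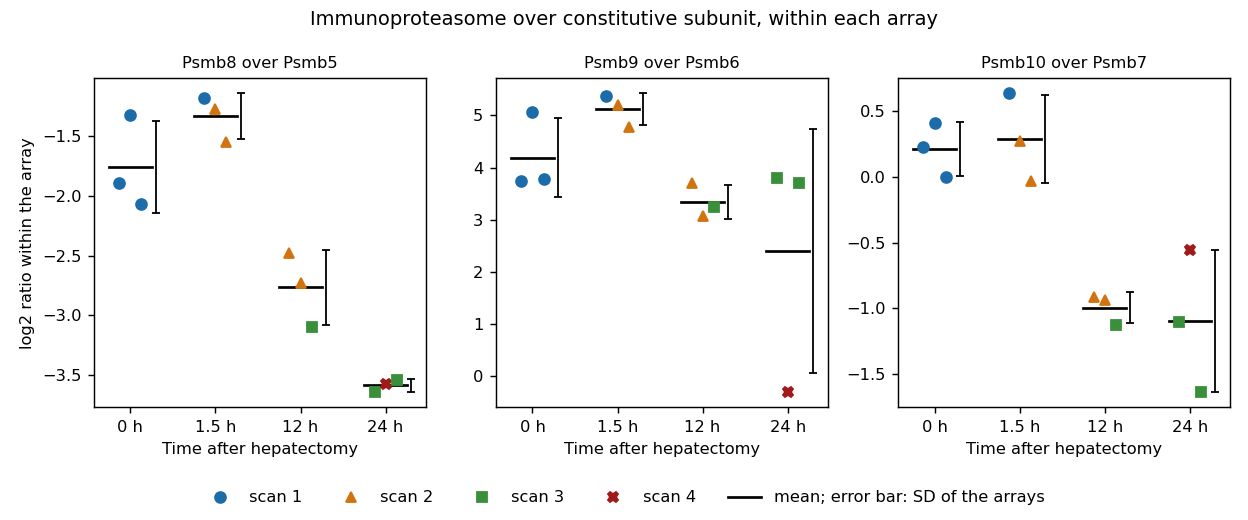
Log2 ratio of each immunoproteasome subunit to the constitutive subunit it replaces (vertical axis) within each array, by time after hepatectomy, with symbols for the scan, bars for the mean and error bars for the SD of 3 arrays. Psmb8 over Psmb5 falls from a mean of -1.76 at 0 h to -2.77 at 12 h and -3.59 at 24 h; 24 h replicate 2 sets the wide spread of Psmb9 over Psmb6.

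Markers of antigen-presenting cells, which carry immunoproteasomes, were also lower in sum at the later times. Their list (Itgax, H2-Aa, H2-Ab1, Cd74 and Ciita, with Flt3 not kept by the filter) had a summed linear signal of 20.1 to 54.1 times the array's 75th percentile at 0 h and 26.5 to 88.1 at 1.5 h. At 12 h the sum was 12.5 to 17.8 and at 24 h 6.85 to 11.6, so neither later group overlapped an earlier one. Of the 5 genes, 1 passed at 12 h (Itgax, the CD11c integrin chain, log2 -1.33 ± 0.39, limma adjusted p = 0.0420) and 1 at 24 h (H2-Aa, an MHC class II chain, -2.06 ± 0.51, limma adjusted p = 0.0410). Of coding genes, 9.9% were called lower at 12 h and 2.43% at 24 h. The sum rests on the brighter genes: 4 of the 5 had a negative 12 h difference, while Ciita, the class II transactivator, differed by 1.43 ± 0.61 (limma adjusted p = 0.132, and 0.00781 without 24 h replicate 2). H2-Aa was highest on the 2 arrays where each of the 3 immunoproteasome genes was highest, at 4.91 on 0 h replicate 2 and 5.45 on 1.5 h replicate 1. Both arrays are of scan 1. H2-Aa was picked from the 5 after its values were seen, and the others are not given by array. The part of such cells in the immunoproteasome difference was not tested. Each of the 5 was well above background on at least 1 array of every group.

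Other immune markers went different ways. Lymphocyte markers (8 of 10 measured) summed to 29.5 to 40.8 at 0 h, 36.4 to 59.2 at 1.5 h, 54.2 to 76.7 at 12 h and 9.95 to 49.8 at 24 h, and the B-cell gene Ms4a1, called lower, was not well above background at 12 h. Ifng and Cd79a did not pass the filter. Of 6 macrophage markers, Marco rose (2.44 ± 0.49) while Csf1r (-1.27 ± 0.36) and Vsig4 (-1.07 ± 0.32) fell at 12 h (limma adjusted p = 0.00814, 0.0381 and 0.0453), where 7.35% of coding genes were called higher and 9.9% lower. The macrophage sums were 14.1 to 25.8 at 0 h and 17.8 to 33.8 at 12 h. Neutrophil markers were called higher in 5 of 7 genes at 12 h, against 7.35% of coding genes. The neutrophil sums were 1.56 to 2.12 at 0 h and 29.8 to 37.1 at 12 h. The part of these immune cells in the immunoproteasome values was not tested either.

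The other genes of antigen processing gave few calls. Of 16 measured genes of antigen processing and the interferon response, 1 was lower at 12 h (Cxcl9, an interferon-gamma-induced chemokine, -2.49 ± 0.71, limma adjusted p = 0.0396) and none higher (9.9% and 7.35% of coding genes). At 24 h 1 was higher (Irgm1, an interferon-induced GTPase, 1.27 ± 0.33, limma adjusted p = 0.0476) and none lower (3.39% and 2.43% of coding genes). Without 24 h replicate 2, 3 were lower and 1 higher at 12 h (19.9% and 29.3% of coding genes). The list median was 0.04 at 12 h and -0.20 at 24 h. Tap1, which lies between Psmb9 and Psmb8, read 2.54, 2.88 and 2.13 at 0 h and 2.34, 2.17 and 2.20 at 12 h. Those ranges overlap (-0.28, limma adjusted p = 0.618). Its partner Tap2 differed by -1.02 at 12 h (limma adjusted p = 0.0958, and 0.0267 without 24 h replicate 2), and B2m, the light chain of MHC class I, by 0.11 (limma adjusted p = 0.849).

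Among the activators of the Psme family, Psme1 and Psme2 encode the alpha and beta chains of PA28, an interferon-inducible cap that opens the core for peptides. Psme1 read 3.55, 3.96 and 3.64 at 0 h, 4.39, 3.54 and 3.68 at 1.5 h, 2.93, 2.74 and 3.42 at 12 h, and 3.17 and 3.14 on the 2 arrays of 24 h with a usable spot. Both later groups lay below all 0 h arrays, but the differences of -0.69 ± 0.30 at 12 h and -0.56 ± 0.34 at 24 h did not pass (limma adjusted p = 0.150 and 0.384).

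The brighter Psme2 probe read 5.04, 5.46 and 5.11 at 0 h, 5.63, 5.01 and 4.96 at 1.5 h, 4.51, 4.35 and 4.50 at 12 h, and 4.97, 5.53 and 4.35 at 24 h. The 12 h arrays lay below all earlier ones. At 24 h replicate 2 was high, at 5.53, while the other 2 arrays lay below all 0 h arrays. The 24 h difference of this probe was -0.25 ± 0.32 (limma adjusted p = 0.687), and -0.54 ± 0.27 without replicate 2 (0.194). The second probe, with replicate 2 left out as an outlier spot, gave -0.60 ± 0.27 at 24 h without overlap (limma adjusted p = 0.243). The 12 h difference of the brighter probe was -0.75 ± 0.32 (limma adjusted p = 0.136, and 0.0275 without 24 h replicate 2), and the second probe gave -0.62 ± 0.24 (adjusted p = 0.114). With scan as a block the 12 h values of Psme1 and Psme2 were -0.10 and -0.13. Within scan 2 they were 0.77 and 0.56 lower at 12 h than at 1.5 h (log2 differences of -0.77 and -0.56).

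Psme3 encodes the nuclear activator PA28 gamma and Psme4 the nuclear activator PA200. Psme3 read -0.36, 0.34 and -0.17 at 0 h and 0.82, 0.29 and 0.91 at 12 h, a difference of 0.73 ± 0.40 with overlapping groups (limma adjusted p = 0.220, and 0.0441 without 24 h replicate 2). Psme4 read 4.23, 4.06 and 4.23 at 0 h and 3.26, 3.18 and 3.53 at 12 h, with no overlap. Its difference was -0.85 ± 0.42 (limma adjusted p = 0.182, and 0.00872 without 24 h replicate 2). At 24 h Psme4 read 3.80, 5.31 and 3.39, so 24 h replicate 2 was its highest array and the other 2 were below 0 h. Of the 4 activators none passed at 12 h in the standard model, 3 had a negative 12 h difference, and their median was -0.72. All 4 passed with array weights (limma adjusted p between 0.00112 and 0.0187), a setting that called 19851 of all 31168 probes at 12 h.

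The 7 alpha subunits, which form the outer rings and the gate of the core, gave no call in the standard model. Their 12 h differences ran from -0.29 to 0.39 with standard errors of 0.21 to 0.49, and none passed in any comparison (smallest limma adjusted p = 0.163, for 24 h against 12 h). At 24 h all 7 had positive differences, from 0.12 to 0.53, around a median of 0.25. Without 24 h replicate 2, 5 were above 0 and 2 below, from -0.26 to 0.41 (median 0.16). The sign of the 12 h median changed with the scaling, from -0.37 with normexp background correction to 0.10 with the 75th percentile of coding probes. Psma5 read 5.20, 5.03 and 5.12 at 0 h, 5.48, 5.34 and 5.71 at 12 h and 5.62, 5.54 and 5.42 at 24 h. Both later groups lay above 0 h without overlap, yet neither difference passed.

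The 7 constitutive beta subunits likewise gave no call in the standard model. Their 12 h differences ran from -0.52 to 0.65 (median -0.00) and their 24 h differences from -0.22 to 0.44 (median 0.16). Psmb2, a non-catalytic ring subunit, read 2.04, 2.07 and 2.30 at 0 h and 2.88, 2.54 and 2.96 at 12 h, with no overlap. Its difference of 0.65 ± 0.28 did not pass in the standard model (limma adjusted p = 0.140) and passed without 24 h replicate 2 (0.0146). It also passed with array weights (0.00459), where 19851 of all 31168 probes were called at 12 h. Psmb1 was lower without overlap at 12 h, at 0.85, 0.37 and 0.85 against 1.02, 1.35 and 1.21, and did not pass. Of the catalytic genes, Psmb7 read 4.10, 4.27 and 4.14 at 0 h, 4.24, 4.10 and 4.43 at 12 h and 4.54, 4.45 and 4.46 at 24 h, so only the 24 h group stood above 0 h.

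Among the 6 ATPases of the 19S base, which unfold the substrate, no gene passed. Their medians were -0.22 at 1.5 h, -0.19 at 12 h and 0.28 at 24 h. Without 24 h replicate 2 the 24 h median was 0.04, with 3 genes above 0 and 3 below. Psmc1 at 24 h had values of 2.60, 1.46 and 2.61 below its 0 h values of 2.80, 3.08 and 2.90 (-0.70, without a call, and -0.32 without replicate 2). Psmc6 read 1.75, 1.66 and 1.81 at 0 h and 2.28, 3.41 and 1.95 at 24 h, a difference of 0.81 ± 0.35 (limma adjusted p = 0.218) that dropped to 0.37 ± 0.22 without 24 h replicate 2.

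The 14 non-ATPase genes include the scaffold subunits Psmd1 and Psmd2, the ubiquitin receptor Psmd4, the deubiquitinase Psmd14 and the base assembly factors Psmd5, Psmd9 and Psmd10. None passed in the standard model, and their medians were -0.15, -0.05 and 0.35 at 1.5, 12 and 24 h. Psmd5, a chaperone of 19S base assembly, read 2.21, 2.14 and 2.10 at 0 h, 1.30, 1.44 and 1.45 at 12 h and 2.28, 4.05 and 2.07 at 24 h. The 12 h arrays lay below all others, including those of 1.5 h at 2.11, 1.96 and 1.97. With all arrays its 12 h difference of -0.75 ± 0.43 did not pass (limma adjusted p = 0.239), nor did the 24 h against 12 h difference of 1.40 ± 0.43 (0.0529). Without 24 h replicate 2 both passed, at -0.75 ± 0.15 (limma adjusted p = 0.00397) and 0.77 ± 0.17 (0.0162). With scan as a block its 12 h difference was -0.63 ± 0.24 (limma adjusted p = 0.188).

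Psmd10, also known as gankyrin, is a 19S assembly chaperone that binds the retinoblastoma protein. It read -0.90, -0.86 and -0.90 at 0 h, -0.57, -0.58 and -0.23 at 12 h and -0.42, 1.26 and -0.33 at 24 h. Both later groups lay above 0 h, and the 24 h difference was 1.06 ± 0.39 with all arrays (limma adjusted p = 0.152) and 0.52 ± 0.20 without replicate 2 (0.0975). Psmd6, a subunit of the 19S lid, read 2.41, 2.43 and 2.65 at 0 h, 2.80, 2.67 and 3.21 at 12 h and 3.17, 3.48 and 3.13 at 24 h. Both later groups lay above 0 h without overlap, while they overlapped each other, and the 24 h difference of 0.76 ± 0.24 did not pass (limma adjusted p = 0.0901, and 0.0549 without 24 h replicate 2).

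**Figure D3:**
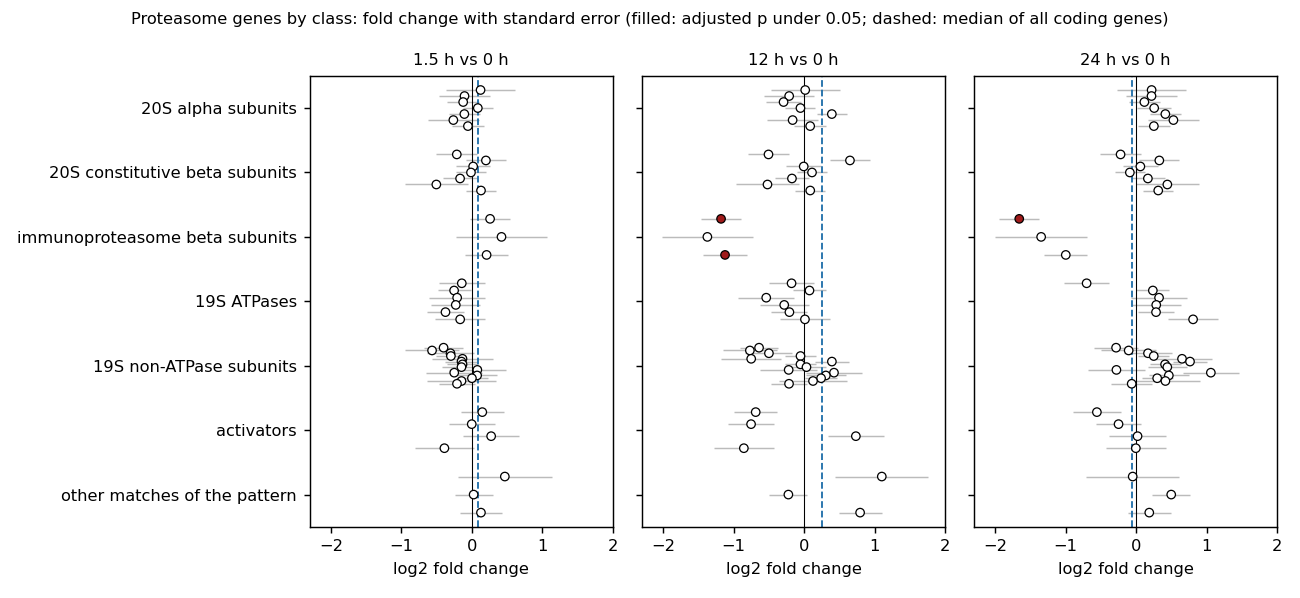
Log2 fold change (horizontal axis) with its standard error for each of the 44 genes, by class, at 1.5, 12 and 24 h against 0 h; filled points have a limma adjusted p under 0.05 and the dashed line is the median of all coding genes. The 3 immunoproteasome genes lie between -1.37 and -1.12 at 12 h and between -1.66 and -1.0 at 24 h, to the left of all other members.

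Part of the movement of the constitutive genes followed the scan. In 9 members (Psma6, Psmb5, Psmb6, Psmc4, Psmc5, Psmd1, Psmd2, Psmd3 and Psmd14) all 4 arrays of scan 2, of 1.5 h and 12 h alike, lay below all 7 arrays of scans 1 and 3, against 2.24% of coding genes. No member lay the other way, against 14.2% of coding genes. Psmd2, a scaffold subunit that receives ubiquitin-binding shuttle proteins, shows it most plainly. It read 4.38, 4.31 and 4.30 at 0 h, 4.36, 3.47 and 3.47 at 1.5 h, 3.28, 3.06 and 4.34 at 12 h and 4.57, 3.73 and 4.37 at 24 h. Its low arrays were the 4 of scan 2 and the single array of scan 4. With scan as a block the 12 h difference of Psmd2 was -0.27 against -0.77 without it. That of Psmd3 turned from -0.50 to 0.23, that of Psmb6 from -0.52 to 0.27 and that of Psmd14 from -0.21 to 0.44. The immunoproteasome genes are not among them, since their 1.5 h arrays of scan 2 lay above 12 h replicate 3 of scan 3. For Psmb8 these read 4.36 and 4.10 against 3.01. With scan as a block the 12 h differences of Psmb8, Psmb9 and Psmb10 were -0.52, -0.14 and -0.63. Without the block they were -1.18, -1.37 and -1.12.

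**Figure D4:**
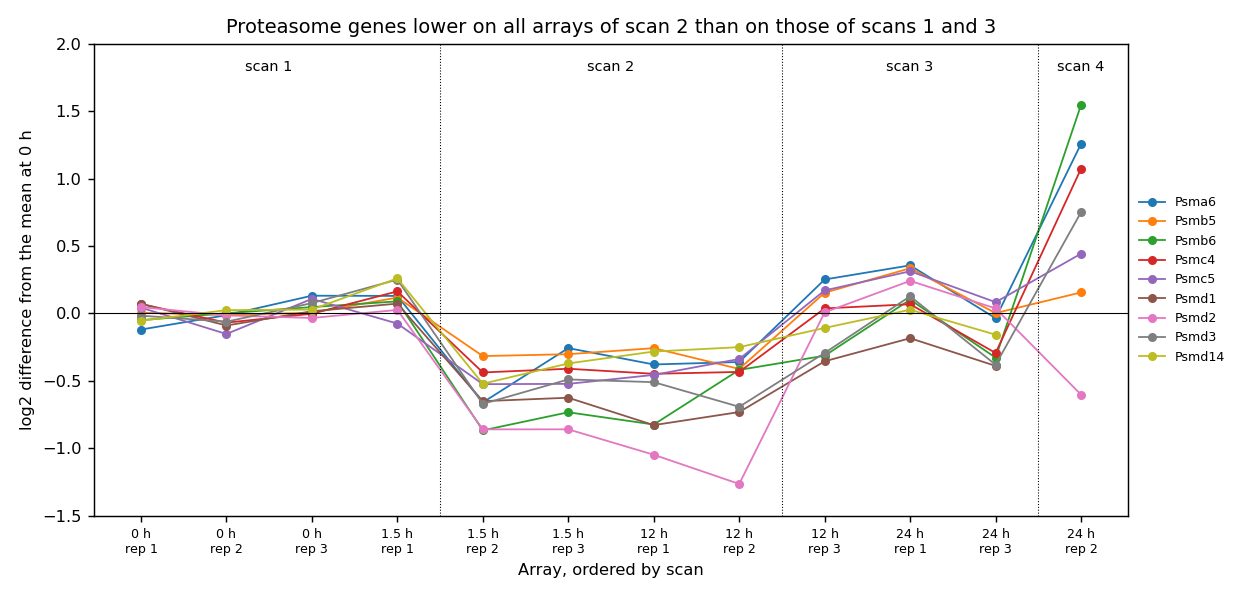
Log2 difference of each array from the gene's 0 h mean (vertical axis) for the 9 proteasome genes that were lower on all 4 arrays of scan 2 than on all arrays of scans 1 and 3, with arrays ordered by scan along the horizontal axis. Lines join the arrays of a gene and break where a spot was left out. The genes were chosen for low values on scan 2, so that pattern was set by the choice. The depth differs by gene. In Psmd1 the 12 h array of scan 3 also lies below 0 h, at a signal of 3.80 against a 0 h mean of 4.16.

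Early after surgery the family showed no called change. At 1.5 h against 0 h no member passed by limma, where 0.0356% of coding genes were called. At an unadjusted p under 0.05 there were 0 of 44 members and 1010 of 16838 coding genes. The median over members was -0.13 and over coding genes 0.08. By separation of the arrays alone, 1 member was higher (Psmb11) and 1 lower (Psmd10), against 15.1% and 10.7% of coding genes.

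At 12 h, 14 members were lower and 6 higher than 0 h with no overlap between the arrays that had a usable spot (25.3% and 36.9% of coding genes in those directions). At 24 h, 5 were lower and 10 higher (13.2% and 15.7%). For 24 h against 12 h, 36 of 44 members had a positive difference, with a median of 0.29 where coding genes had -0.17. With the 75th percentile over coding probes it was 25 of 44 (median 0.07, and -0.37 over coding genes). With scan as a block it was 26 of 44 (median 0.06, and -0.09 over coding genes). None passed by limma in the standard model, where 7.68% of coding genes were called higher and 5.77% lower. At an unadjusted p under 0.05 there were 3 of 44 members and 6488 of 16838 coding genes. In 2 members all 24 h arrays were below all 12 h arrays (22.7% of coding genes). In 8 they were all above (17.9%), among them Psma3, Psma4, Psmb7, Psmd4, Psmd5 and Psmd7. Within scan 3 the median of 24 h minus 12 h was 0.06 over members and -0.09 over coding genes.

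Leaving out 24 h replicate 2 gave more calls in the 3 later comparisons. At 12 h it gave 7 lower members (Psmb8, Psmb9, Psmb10, Psmd1, Psmd5, Psme2 and Psme4) and 4 higher (Psmb2, Psme3, Psmb11 and Psme3ip1), against 19.9% and 29.3% of coding genes. At 24 h it gave 2 lower (Psmb8 and Psmb10) and 1 higher (Psmb11), against 6.61% and 10.2%. For 24 h against 12 h it gave 2 higher (Psmd5 and Psmc3ip), and none lower, against 10.4% and 6.92%.

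Of the 3 genes described apart, Psmb11 encodes a beta subunit of the thymus proteasome. It read -4.02, -4.13 and -3.99 at 0 h, -3.03, -3.07 and -2.72 at 12 h and -3.39, -6.14 and -2.75 at 24 h, near the lower end of the detectable signal. Its 12 h difference of 1.1 ± 0.66 did not pass in the standard model (limma adjusted p = 0.260) and passed without 24 h replicate 2 (0.00206). It also passed with array weights (0.00135), as did 19851 of all 31168 probes. Psme3ip1, whose product binds PA28 gamma, read 2.95, 2.96 and 2.91 at 0 h and 3.60, 3.76 and 3.85 at 12 h (0.80 ± 0.30, limma adjusted p = 0.101, and 0.00369 without 24 h replicate 2). Psmc3ip, a recombination factor of meiosis, read -3.53, -3.08 and -2.83 at 12 h and -2.28, -2.70 and -2.32 at 24 h, which did not overlap and did not pass (limma adjusted p = 0.0827).

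Genes that build and feed the proteasome gave few calls in the standard model. Of 5 measured assembly factors none passed at any time point. Psmg1, an alpha-ring chaperone, came nearest, with 3.07, 3.00 and 3.13 at 0 h and 2.21, 2.35 and 2.55 at 12 h (-0.69 ± 0.22, limma adjusted p = 0.0555). Pomp, the maturation factor of the core, read 5.18, 5.26 and 5.13 at 0 h and 4.56, 4.54 and 4.54 at 12 h (-0.65, limma adjusted p = 0.0787). Both groups were separate, and without 24 h replicate 2, 4 of the 5 factors passed as lower, against 19.9% of coding genes. Of 17 proteasome-associated proteins and ubiquitin receptors, 1 was lower at 12 h (Rad23b, a shuttle that carries ubiquitinated proteins, -1.15 ± 0.35, limma adjusted p = 0.0467), where 9.9% of coding genes were called lower. Without 24 h replicate 2, 7 of the 17 were lower, against 19.9% of coding genes. Ubqln2, another shuttle, was the 1 of the 17 called higher at 24 h than at 12 h (0.99 ± 0.29, limma adjusted p = 0.0482). Of coding genes, 7.68% were called higher in that comparison.

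Among the ubiquitin genes, Ubb read 6.51, 6.35 and 6.27 at 0 h and 7.14, 6.61 and 7.0 at 12 h (0.54, limma adjusted p = 0.151). All 12 h arrays lay above all 0 h arrays, and the difference did not pass.

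NRF1 (Nfe2l1) is the factor that raises proteasome subunit genes when the proteasome is short of capacity, after cleavage by the protease Ddi2. Nfe2l1 read 3.79, 3.63 and 3.99 at 0 h and 3.97, 4.12 and 4.29 at 12 h, which overlap, and did not pass (0.32, limma adjusted p = 0.396). Ddi2 read 1.94, 2.14 and 1.91 at 0 h and 3.56, 2.50 and 2.99 at 12 h (1.02, limma adjusted p = 0.0701, and 0.0154 without 24 h replicate 2). Of the 14 genes of the NRF1 and NRF2 list, 3 were lower and 1 higher at 12 h (9.9% and 7.35% of coding genes). At 24 h again 3 were lower and 1 higher (2.43% and 3.39% of coding genes). Without 24 h replicate 2, 6 were lower and 2 higher at 12 h (19.9% and 29.3%). The glutathione synthesis genes Gclc (-2.40 ± 0.34) and Gclm (-1.24 ± 0.31) and the NRF partner Mafg (-1.67 ± 0.30) fell at 12 h, while the heme oxygenase Hmox1 rose (1.54 ± 0.41), with limma adjusted p between 0.00137 and 0.0279. The proteasome subunits with an antioxidant response element core in their window (Psmb5, Psmb6, Psmc6, Psmd9 and Psmd12) gave no call at 12 h in the standard model.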

How the data were processed

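Per the file headers, spots were read with Agilent Feature Extraction 10.5.1.1, and the deposited files hold, for each spot, a processed intensity on a linear scale, the median spot and local background intensity, and quality marks. The authors also deposited log2 values for 20271 probes; their normalization is not given in the sources used here, so they served as an alternative. Control and outlier spots were left out, spots of 1 probe were averaged, and log2 intensity minus the array's 75th percentile was used. Of 37246 probes, 31168 were kept, being well above background on at least 3 arrays. Accessions were named from a RefSeq gene table (21963 of 22522 coding probes).

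limma 3.58.1 (R 4.3.3, lmFit and eBayes) fitted 4 group means to all 12 arrays, two-sided, with Benjamini-Hochberg adjustment over the kept probes and a threshold of 0.05. With 3 arrays per group the number of arrays limits precision. The fit was tested on simulated data. Named genes were all pattern matches, and from each related list up to 4 genes past the threshold, or the one with the smallest adjusted p. Tap1, Tap2, B2m, Pomp and H2-Aa values outside that rule were chosen after they were seen. Members and lists were chosen with earlier results of these data known. Deviations of same-numbered arrays correlated from -0.42 to 0.09, -0.35 to 0.21 and -0.28 to 0.41 for numbers 1, 2 and 3. The labels state no pairing, and numbers were not used as pairs. Alternatives covered background correction, scaling, filter, moderation, array weights, scan or replicate block, groups fitted, and each array left out. One gene of the ubiquitin list is not reported here.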

Additional observations from a re-analysis of the deposited data

How the results depend on the processing

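Of 25 alternatives, the 12 h difference of Psmb8 stayed negative in all (-1.60 to -0.52) and past the threshold in 20, and that of Psmb10 (-1.53 to -0.63) in 16; at 24 h Psmb8 (-1.82 to -1.0) passed in 22. The count of 0 members at 1.5 h became 8 with array weights, which called 12906 of all 31168 probes against 7 in the standard model. The 12 h count of 2 became 1 with normexp, 17 with array weights, 0 with scan as a fixed block, 12 with only the 2 groups compared, and 0 to 11 with 1 array left out. Of all 31168 probes, the standard model called 4775 at 12 h, normexp 1063 and array weights 19851. Scan as a block called 1295, the fit of 2 groups 15587, and the fits with 1 array left out 2246 to 15342. The 24 h count of 1 became 2 with quantile normalization, 3 with the authors' values, 3 with robust moderation, 8 with array weights, 0 with scan as a block, 0 with only the 2 groups compared, and 0 to 3 with 1 array left out. Of all 31168 probes, the standard model called 1701 at 24 h, quantile normalization 2372, robust moderation 1851 and array weights 8578. Scan as a block called 83, the fit of 2 groups 121, and the fits with 1 array left out 415 to 5288. The authors' values gave 2011 of 20271. The count of 0 for 24 h against 12 h became 2 with quantile normalization, 3 with the authors' values, 1 with the filter on all 12 arrays, 1 with robust moderation, 4 with array weights, and 0 to 7 with 1 array left out. Of all 31168 probes, the standard model called 4063 there, quantile normalization 5334, robust moderation 4650 and array weights 12538. Fits with 1 array left out called 384 to 10798. The authors' values gave 5776 of 20271, and the filter on all 12 arrays 4656 of 20275. Leaving out 24 h replicate 2 with quantile normalization, added after seeing the data, gave 10, 4 and 2 members at 12 h, 24 h and 24 h against 12 h. It called 11966, 5105 and 5206 of all 31168 probes in these comparisons. With the replicate number as a block, the counts were 2 at 12 h and 1 at 24 h, and no call changed. That setting called 3603 of all 31168 probes at 12 h and 1158 at 24 h. The labels do not state that the numbers pair the mice.

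The 12 h minus 0 h ratio of Psmb9 over Psmb6 was -0.54 with quantile normalization (exact permutation p = 0.0381) and -0.55 with the authors' values (0.0383), both past the threshold, and -1.08 to -0.42 with 1 array left out. The other 2 ratios kept their calls in the 17 alternatives other than scan as a block. That one, added after seeing the data, gave -0.61 (exact permutation p = 0.0556) for Psmb8 over Psmb5 and -0.62 (0.222) for Psmb10 over Psmb7, both no longer past the threshold, and -0.41 (0.0278) for Psmb9 over Psmb6. Signs reversed for Psmb11 at 24 h (main -0.05; 0.295 with quantile normalization, 0.85 with array weights, 0.64 with scan as a block, -0.72 to 0.97 with 1 array left out, 0.78 without it and with quantile normalization), Psmb9 at 24 h (0.58 with scan as a block), Psme2 at 24 h (0.034 with scan as a block, 0.048 without 24 h replicate 3) and Psmc3ip for 24 h against 12 h (-0.47 with normexp). The causes were not tested. Psma1 and Psmb11 are limited by signal near background.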
